A study of Oryza sativa with 4 samples.

Results

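The miR166 family of rice was examined in small RNA lists from root and shoot of Oryza sativa cv. Pokkali, a salt-tolerant cultivar. Members were taken by name: every entry of the 4 lists assigned to the miRBase family mir166 was kept, and each distinct mature sequence was counted a single time. This gave 5 distinct sequences of 783 in the whole series. The seedlings were 9 days old and grown in hydroponics. NaCl-treated seedlings received 1.5% NaCl through the root for 9 h, and control seedlings received none. The root samples were the submerged part of the seedlings and the shoot samples the aerial part, so each mixes many cell types. There were 4 libraries, NaCl-treated root, control root, NaCl-treated shoot and control shoot, with 1 library per condition. No spread between plants could therefore be measured, no p-value is given, and every ratio below compares libraries, not conditions. Intervals are at 95%. They hold counting error alone, and PCR copies of 1 molecule are counted as separate reads.

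miR166 is one of the most conserved plant miRNAs. It guides cleavage of the mRNAs of class III homeodomain-leucine zipper (HD-ZIP III) transcription factors, which specify the upper side of leaves, pattern vascular tissue and keep the shoot meristem active. In Arabidopsis, miR165 and miR166 move between root cell layers and grade HD-ZIP III activity across the vascular cylinder. A plant miRNA is cut from a folded precursor, or hairpin, as a duplex of the mature strand and its partner strand, the miRNA*. Several hairpins can give the same mature strand while their miRNA* strands differ. The HD-ZIP III mRNAs were not measured in these libraries, and their miR166 target sites were not analysed here.

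The 5 sequences comprise 4 from the 3p arm of the hairpin and 1 from the 5p arm. They are shown because the results turn on where each starts and on a few bases near the 3′ end. All are written as DNA letters 5′ to 3′ as the lists give them, with the seed, bases 2 to 8, in capitals.
Canonical form: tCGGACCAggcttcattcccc
Upstream form: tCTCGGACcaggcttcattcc
20-nt form: tCGGACCAggcttcattccc
k/l form: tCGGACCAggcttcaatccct
5p form: gGAATGTTgtctggttcaagg
The upstream form is read from the same strand as the canonical form with its start shifted 2 nt in the 5′ direction, so that 19 bases are shared and the seed differs. The 20-nt form is the canonical form without its last base. The k/l form, called here after the family members k and l that carry it, differs from the canonical form by T16A and C21T, with positions counted from the 5′ end. The canonical, 20-nt and k/l forms share 1 seed, and the family has 3 seeds in all.

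The lists held 10 miR166 hairpins on IRGSP-1.0 coordinates. Of these, 9 were in all 4 lists, and the plus-strand hairpin of 127 nt on chromosome 3, which carries the 5p form, was in both root lists only. The genes around the hairpins were not analysed here. In all 34 miR166 entries whose mature sequence lies wholly within its hairpin, the mature coordinates ran 1 base ahead of the hairpin coordinates, so hairpin ends are certain to 1 base only. The 4 hairpins below show the arrangements that matter for the results, with the listed mature strands in capitals.
Chromosome 10 hairpin, chr10:19987134-19987278, plus strand: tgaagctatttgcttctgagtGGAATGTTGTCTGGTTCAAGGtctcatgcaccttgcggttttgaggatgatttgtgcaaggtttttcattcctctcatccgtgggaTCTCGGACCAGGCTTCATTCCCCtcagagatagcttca
Chromosome 12 hairpin, chr12:18329362-18329514, plus strand: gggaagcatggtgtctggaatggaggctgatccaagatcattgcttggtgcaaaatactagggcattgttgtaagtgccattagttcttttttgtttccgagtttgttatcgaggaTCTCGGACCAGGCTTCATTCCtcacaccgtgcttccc
Chromosome 3 hairpin, chr3:30392799-30392861, minus strand: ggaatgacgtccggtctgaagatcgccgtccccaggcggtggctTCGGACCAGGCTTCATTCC
Chromosome 9 hairpin, chr9:16951816-16951931, plus strand: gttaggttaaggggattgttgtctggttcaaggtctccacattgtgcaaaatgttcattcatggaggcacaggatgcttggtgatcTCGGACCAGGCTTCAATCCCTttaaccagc
The plus-strand chromosome 10 hairpin holds the 5p form and, in the other arm, a stretch from which the upstream and the canonical form can both be read. In all, 4 hairpins hold both forms: this one, the minus-strand hairpin on chromosome 10, and those on chromosomes 2 and 6. The chromosome 12 hairpin holds the upstream form alone. The canonical form without the upstream form lies in 2 hairpins, both on chromosome 3. In the minus-strand one the last 2 bases of the canonical form run past the end of the hairpin as listed. The chromosome 9 hairpin carries the k/l form, and a hairpin on chromosome 8 carries the 20-nt form.

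miR166 filled most of the root lists. Family reads numbered 34304 in NaCl-treated root, 29590 in control root, 7541 in NaCl-treated shoot and 19137 in control shoot. In RPM, reads per 1000000 of the reads used for prediction, these were 2829 (exact Poisson interval 2799 to 2859), 4296 (4247 to 4345), 772 (755 to 790) and 1459 (1438 to 1480). Both root libraries were above both shoot libraries, and in each tissue the NaCl library was the lower one on this scale, an order that turned in root under 3 of 7 other denominators. In such mixed tissue, fewer cells that make miR166 and less miR166 per cell cannot be told apart. All listed reads together were 0.330% of the reads used for prediction in NaCl-treated root and 0.483% in control root. In NaCl-treated and control shoot they were 0.317% and 0.463%. miR166 made up 85.8% of all listed reads in NaCl-treated root and 89.0% in control root, against 24.4% in NaCl-treated shoot and 31.5% in control shoot. The shoot shares turn on a few other sequences. In NaCl-treated shoot a miR168 sequence alone had 32.1% of the listed reads and a miR1425 sequence 21.5%, and in control shoot a predicted sequence with no family had 47.7% and the miR1425 sequence 5.38%. In root the most abundant other sequence was also the miR1425 sequence, with 4.68% in NaCl-treated and 2.71% in control root, followed by a predicted sequence (0.995%) and a miR156 sequence (1.34%). Among conserved sequences only, the miR166 share was 90.1% and 91.7% in NaCl-treated and control root, and 26.8% and 67.3% in NaCl-treated and control shoot.

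**Figure D1:**
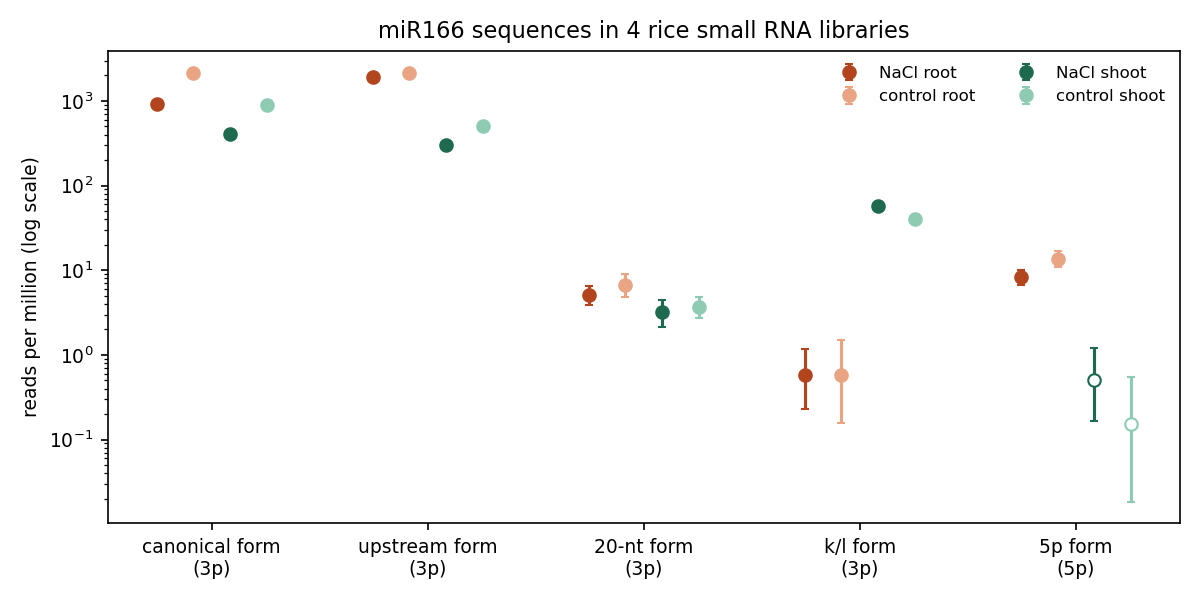
RPM (log scale) of each miR166 sequence in the 4 libraries, 1 point per library with an exact Poisson 95% interval for counting error, often smaller than the point. Open points are shoot reads of the 5p form recorded as miRNA* only. The k/l form stands at 57.5 and 40.6 RPM in the shoot libraries and near 0.58 RPM in both root libraries, while the 5p form has the opposite order.

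The canonical form, the sequence usually given as mature miR166, was among the 3 most abundant sequences of every list. In root it had 914 RPM in NaCl-treated and 2128 RPM in control seedlings, from 11082 and 14659 reads. In shoot it had 407 RPM in NaCl-treated and 904 RPM in control seedlings, from 3976 and 11858 reads. NaCl-treated root and control shoot were thus at nearly the same level. The RPM ratio of NaCl over control was 0.429 (0.419 to 0.440) in root and 0.450 (0.434 to 0.467) in shoot. A ratio of at least 2 or at most 0.5 whose interval excluded 1 was called. On the RPM scale the canonical form was the only member called lower in either tissue. With 7 other denominators the root ratio ranged from 0.487 to 0.715 and kept its call under 1, and the shoot ratio ranged from 0.315 to 0.659 and kept its call under 5.

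The upstream form was the most abundant sequence in both root lists. In root it had 1901 RPM in NaCl-treated and 2147 RPM in control seedlings, from 23052 and 14787 reads. In shoot it had 304 RPM in NaCl-treated and 511 RPM in control seedlings, from 2973 and 6698 reads. Control root held it at the same level as the canonical form, whereas in NaCl-treated root it was well above the canonical form and in both shoot libraries below it. The ratio of NaCl over control was 0.885 (0.867 to 0.904) in root, where all 7 other denominators put it above 1 (1.00 to 1.48), so its direction in root is not settled. In shoot the ratio was 0.596 (0.571 to 0.623), with 0.417 to 0.873 under the other denominators, 3 of which called it lower.

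The 20-nt form was rare in every library. Root held 62 reads with NaCl (5.11 RPM) and 46 without (6.68 RPM), and shoot 31 with NaCl (3.17 RPM) and 48 without (3.66 RPM). Its ratio of NaCl over control was 0.766 (0.514 to 1.15) in root and 0.868 (0.534 to 1.39) in shoot, both within counting error of 1. The lists place it on chromosome 8, but it has 7 genome matches and is contained in the canonical form, so its reads cannot be assigned to that hairpin.

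The k/l form was nearly confined to shoot in these libraries. It has 2 genome matches, of which only the chromosome 9 hairpin was listed, so its reads cannot be assigned to that hairpin alone. It had 7 reads (0.577 RPM) in NaCl-treated root and 4 reads (0.581 RPM) in control root, against 561 in NaCl-treated shoot (57.5 RPM) and 533 in control shoot (40.6 RPM). The root and shoot libraries do not overlap, and root over shoot was 0.0100 (0.00402 to 0.0208) with NaCl and 0.0143 (0.00388 to 0.0368) without. Under the 7 other denominators these ratios stayed at or below 0.0512 and 0.0852. In shoot, NaCl over control was 1.41 (1.25 to 1.59), not called, and from 0.988 to 2.07 under the other denominators. By listed reads, which gave 2.07, this ratio was called higher. In root it was 0.994 (0.253 to 4.63), an interval too wide at this depth to show a difference of either direction.

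The 5p form, the strand opposite to the regulatory one, had the reverse distribution. It was listed with 101 reads in NaCl-treated root (8.33 RPM) and 94 in control root (13.6 RPM). In shoot it was recorded only as miRNA* of the plus-strand chromosome 10 hairpin, with 5 reads in NaCl-treated shoot (0.512 RPM) and 2 in control shoot (0.152 RPM). Root over shoot was 16.3 (6.74 to 51.2) with NaCl and 89.5 (24.1 to 750) without, with these miRNA* reads taken for shoot. Under the 7 other denominators these ratios ranged from 15.6 to 82.9 and from 54.0 to 534. NaCl over control in root was 0.610 (0.456 to 0.817), and from 0.692 to 1.02 under the other denominators.

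The family sum was set against all sequences listed in both libraries of a pair. NaCl over control was 0.658 (0.648 to 0.669) in root, not called, and division by raw reads, by trimmed reads or by reads unaligned with NONCODE, a database of non-coding RNA, turned it to between 1.05 and 1.10. In shoot it was 0.529 (0.515 to 0.544), just short of the call, with 0.370 to 0.775 under the other denominators, none above 1 and 5 of 7 called lower. Of the 5 sequences compared in root, none was called higher, where 10.9% of all 46 sequences were, and 1 was called lower, where 13.0% were. Of the 4 compared in shoot, none was called higher against 22.9% of all 96 sequences, and 1 was called lower against 7.29%. The median ratio was 0.766 for the members and 0.804 for all sequences in root, and 0.732 for the members and 1.34 for all sequences in shoot.

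Between tissues, root over shoot was 3.66 (3.57 to 3.76) for the family with NaCl and 2.94 (2.89 to 2.999) without. The first was called under all 7 other denominators and the second under 4 of them, falling to 1.78 by raw reads. The upstream form had the larger ratios, 6.24 (6.01 to 6.49) with NaCl and 4.20 (4.08 to 4.33) without, and was called higher under every denominator in both. The canonical form had 2.24 (2.16 to 2.33) with NaCl, called under all 7 others, and 2.35 (2.30 to 2.41) without, which fell to 1.42, 1.53 and 1.54 by raw, trimmed and NONCODE-unaligned reads and then was not called. The 20-nt form had 1.61 (1.03 to 2.56) with NaCl and 1.82 (1.19 to 2.79) without, neither called in RPM. It was called higher under 4 of 7 other denominators with NaCl (1.55 to 8.21) and 3 of 7 without (1.10 to 10.9). Of the 4 members compared, 2 were called higher in root in each case, against 17.0% of 47 sequences with NaCl and 14.0% of 50 without. The k/l form was the 1 member called lower in root in each case, against 31.9% with NaCl and 22.0% without. The members' median ratio was 1.93 with NaCl and 2.09 without, and the median over all sequences 0.626 and 0.814. The 4 comparisons share libraries, so they are not independent of each other.

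**Figure D2:**
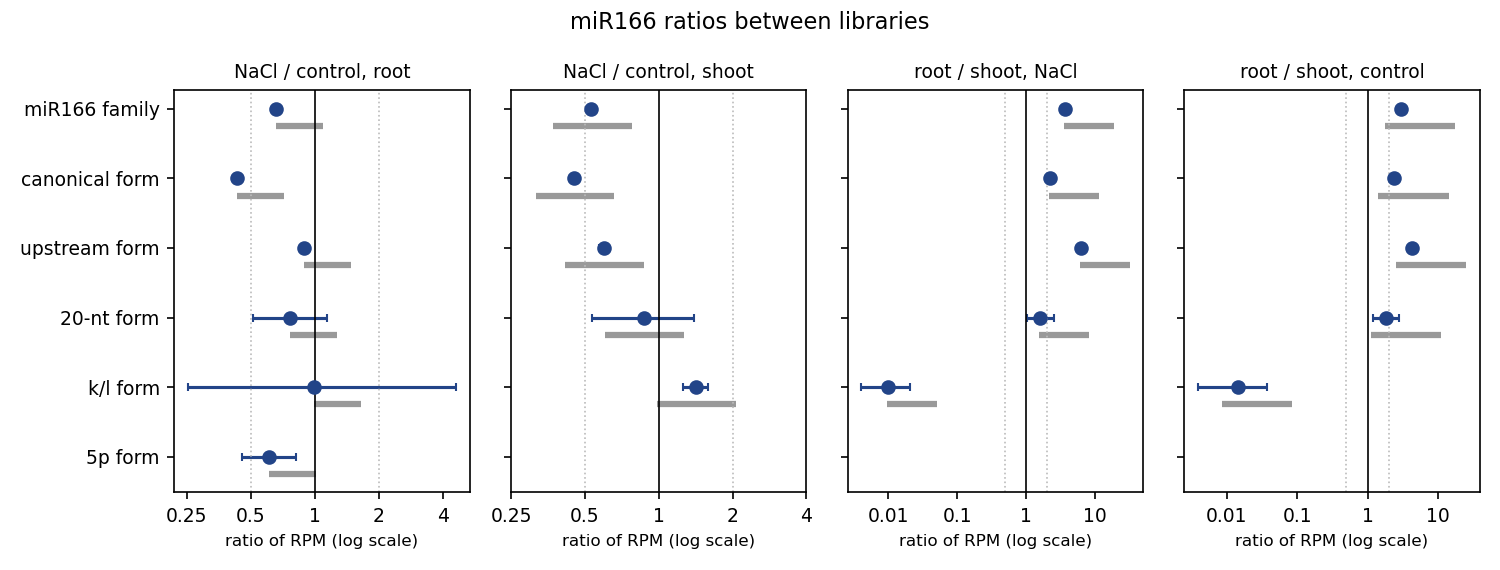
Ratios of RPM (log axis) for the miR166 family and each sequence in the 4 comparisons. Points are the ratios on the RPM scale with counting intervals at 95%, grey bars span the RPM ratio and those under the 7 other denominators, and dotted lines mark the 2-fold limits of the call rule. The grey bar of the family crosses 1 for NaCl over control in root and lies wholly below 1 in shoot.

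The proportion of the forms within a library does not depend on any denominator. Of the reads of the upstream and canonical forms together, the upstream form made up 67.5% in NaCl-treated root (exact binomial interval 67.0% to 68.0%) and 50.2% in control root (49.6% to 50.8%). In shoot it made up 42.8% (41.6% to 44.0%) in NaCl-treated and 36.1% (35.4% to 36.8%) in control seedlings. The 4 intervals do not overlap, the NaCl library was the higher one in each tissue, and both root libraries were above both shoot libraries. The odds of the upstream against the canonical form were 2.06-fold (2.00 to 2.13) those of control in NaCl-treated root, and 1.32-fold (1.25 to 1.40) in NaCl-treated shoot. Root over shoot, the odds ratio was 2.78 (2.64 to 2.93) with NaCl and 1.79 (1.72 to 1.85) without. The upstream and canonical forms do not lie in the same set of hairpins. Both lie in 4 hairpins, the canonical form alone in 2 and the upstream form alone in 1. A change of start within a hairpin and a change in which hairpins gave reads therefore cannot be told apart in these odds, and neither was tested.

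The same comparison was made for the 1 other conserved family with an overlapping pair of sequences of at least 10 reads in all 4 libraries, miR156, which targets SPL transcription factors of phase change. There the form that starts upstream had lower odds in the NaCl library, 0.699 (0.563 to 0.868) in root and 0.575 (0.501 to 0.661) in shoot. Its root over shoot odds ratios were 0.590 (0.486 to 0.716) with NaCl and 0.485 (0.410 to 0.574) without. The miR166 and miR156 pairs thus shifted in opposite directions in each of the 4 comparisons. With 1 library per condition, differences in library preparation between the 4 libraries cannot be told apart from the treatment or the tissue.

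The 20-nt form also took a larger share beside the canonical form in the NaCl libraries. It was 0.556% (0.427% to 0.713%) of the reads of both in NaCl-treated root and 0.313% (0.229% to 0.417%) in control root. In shoot it was 0.774% (0.526% to 1.10%) in NaCl-treated and 0.403% (0.297% to 0.534%) in control seedlings. The odds ratio of NaCl over control was 1.78 (1.20 to 2.67) in root and 1.93 (1.18 to 3.09) in shoot. The odds of the k/l against the canonical form were 3.14-fold (2.77 to 3.56) those of control in NaCl-treated shoot. Of all family reads, the k/l form accordingly made up 7.44% in NaCl-treated and 2.79% in control shoot, against 0.0204% in NaCl-treated and 0.0135% in control root. The canonical form was the reference in each of these odds, so they share its reads and are not independent.

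**Figure D3:**
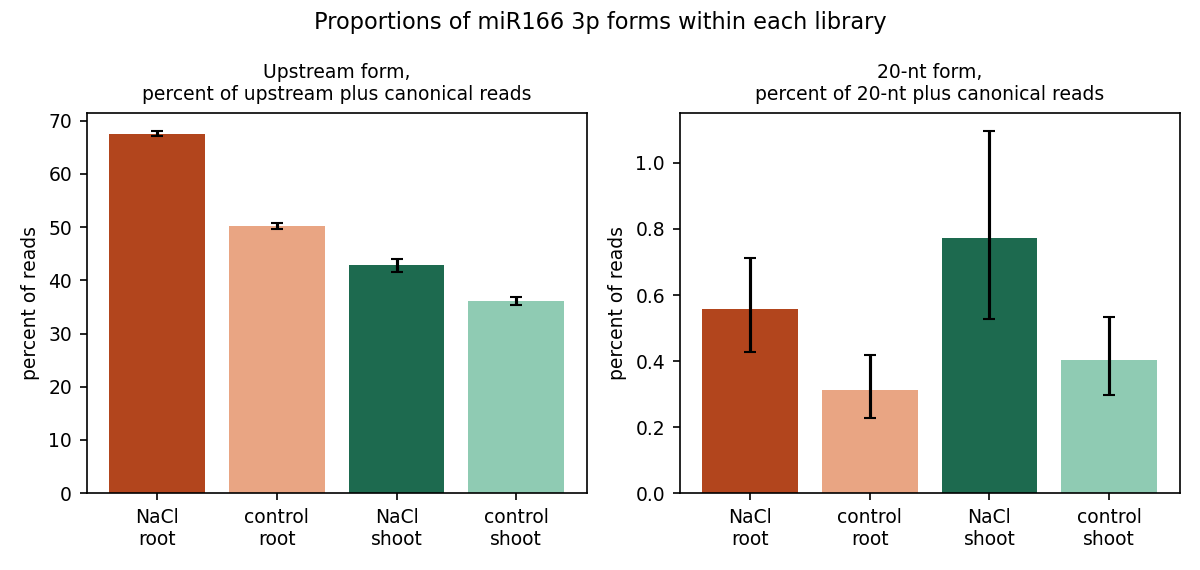
Left, the upstream form as a percent of upstream plus canonical reads in each library. Right, the 20-nt form as a percent of 20-nt plus canonical reads. Bars are shares within a library and error bars exact binomial 95% intervals. Left, the share is 67.5% in NaCl-treated root, 50.2% in control root, 42.8% in NaCl-treated shoot and 36.1% in control shoot.

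The lists record 1 mature sequence per hairpin, and this followed the abundance of the forms. At the 4 hairpins that hold both forms, the upstream form was listed in both root lists and the canonical form in both shoot lists. In each library this was the more abundant of the pair. Each form has the same count at all its hairpins within a library, so the 16 entries are not separate cases. The mature sequence of such a hairpin therefore differs by 2 nt between root and shoot lists. A comparison of the lists by hairpin, in place of by sequence, would set 2 different sequences against each other.

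The miRNA* strands separate some of the hairpins that the mature strands cannot. They are shown for 5 hairpins and, below them, for the hairpin of 127 nt on chromosome 3, with the bases in capitals that differ from the 5p form (in the last one, from the upstream form). The strands of the 117-nt and the minus-strand hairpin on chromosome 3 start 1 nt further in. They were therefore compared with the 5p form from its base 2 on, over 20 bases, and their last base was not compared.
Plus-strand chromosome 10 hairpin: ggaatgttgtctggttcaagg
Chromosome 6 hairpin: ggaatgttgtctggCtcGGgg
Chromosome 2 hairpin: ggaatgttgtctggCtcGagg
Chromosome 3 hairpin of 117 nt: gaatgttgtctggtCcGagAc
Minus-strand chromosome 3 hairpin: gaatgACgtcCggtCTGaAga
Chromosome 3 hairpin of 127 nt: tctcgAaccaggcttcattcc
The miRNA* of the plus-strand chromosome 10 hairpin is the 5p form itself, which also lies in the hairpin of 127 nt on chromosome 3, so its reads belong to 1 or both of these. The chromosome 6 strand differs from the 5p form by T15C, A18G and A19G and the chromosome 2 strand by T15C and A18G. In the hairpin of 127 nt the 5p form is the listed mature strand, and its 3p partner is an upstream form with G6A. In control root 1 read of a canonical form with G4A was recorded there as well, so this hairpin too gave reads of both starts. In all, 24 distinct miRNA* sequences were recorded, of which 20 lie in 1 miR166 hairpin and 4 in 2 of them. These 4 include the 5p form, with 202 miRNA* reads over the libraries, and the 5p form without its last base, with 32.

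miRNA* reads were few beside mature reads, and their hairpins differed between root and shoot. At the 4 hairpins that hold both forms, they were recorded beside the upstream form in root lists and the canonical form in shoot lists. Whether this altered which miRNA* reads were recorded was not tested. Leaving aside the hairpin of 127 nt and counting each miRNA* sequence a single time, there were 141 reads in NaCl-treated root, 130 in control root, 77 in NaCl-treated shoot and 61 in control shoot. The plus-strand chromosome 10 hairpin had 116 and 113 of these in NaCl-treated and control root, or 82.3% (74.9% to 88.2%) and 86.9% (79.9% to 92.2%). In NaCl-treated and control shoot it had 5 and 3, or 6.49% (2.14% to 14.5%) and 4.92% (1.03% to 13.7%). The intervals of the root libraries lie wholly above those of the shoot libraries. Of the root reads, only 1 in NaCl-treated and 2 in control root had sequences found in this hairpin alone. The others, and all 5 and 3 in shoot, also lie in the hairpin of 127 nt on chromosome 3. These shares and the ratios below therefore cannot be assigned to the chromosome 10 hairpin alone. On the RPM scale, root over shoot was 18.7 (7.78 to 58.6) with NaCl and 71.7 (23.9 to 353) without. By raw reads it was 22.7 (9.46 to 71.2) with NaCl and 43.3 (14.4 to 213) without.

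The minus-strand chromosome 3 hairpin had the opposite pattern. No miRNA* read was recorded for it in either root library, although its mature sequence was the same in all 4 lists. With 3 reads taken as the most that a count of 0 allows, 0 of 141 reads in NaCl-treated root allows a share of up to 2.13%, and 0 of 130 in control root up to 2.31%. The upper ends of the exact binomial intervals are 2.58% and 2.80%. In NaCl-treated shoot it had 34 reads, 44.2% (32.8% to 55.9%), and in control shoot 35 reads, 57.4% (44.1% to 70.0%). These were the largest shares of any hairpin in both shoot libraries. Its RPM ratio of NaCl over control in shoot was 1.30 (0.790 to 2.15), within counting error of 1.

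The chromosome 3 hairpin of 117 nt, which like the minus-strand one holds the canonical but not the upstream form, also had most of its miRNA* reads in shoot. It had 2 reads in NaCl-treated root and none recorded in control root, against 14 in NaCl-treated shoot and 12 in control shoot. The chromosome 2 hairpin had 2 in NaCl-treated root, 4 in control root, 16 in NaCl-treated shoot and 8 in control shoot. Root over shoot was 0.101 (0.0112 to 0.428) with NaCl for the chromosome 2 hairpin and 0.952 (0.210 to 3.55) without. The chromosome 6 hairpin had 20, 11, 9 and 4 reads in the same order of libraries, with root over shoot at 1.79 (0.779 to 4.46) with NaCl and 5.24 (1.55 to 22.6) without. The counts of the chromosome 2 and chromosome 6 hairpins share 2 reads in each shoot library, whose sequences lie in both. Without them, root over shoot was 0.115 (0.0127 to 0.501) with NaCl and 1.27 (0.264 to 5.35) without for the chromosome 2 hairpin, and 2.30 (0.935 to 6.44) and 10.5 (2.29 to 97.2) for the chromosome 6 hairpin, the last from 11 and 2 reads. By raw reads the chromosome 6 ratio without NaCl was 3.16 (0.936 to 13.6), with the shared reads kept, and was not called. The chromosome 12 hairpin had 1 read in NaCl-treated root and 2 in control root, with none recorded in shoot. The chromosome 9 hairpin of the k/l form had 1 read in each shoot library and none recorded in root. The minus-strand chromosome 10 hairpin and the chromosome 8 hairpin had none recorded in any list.

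**Figure D4:**
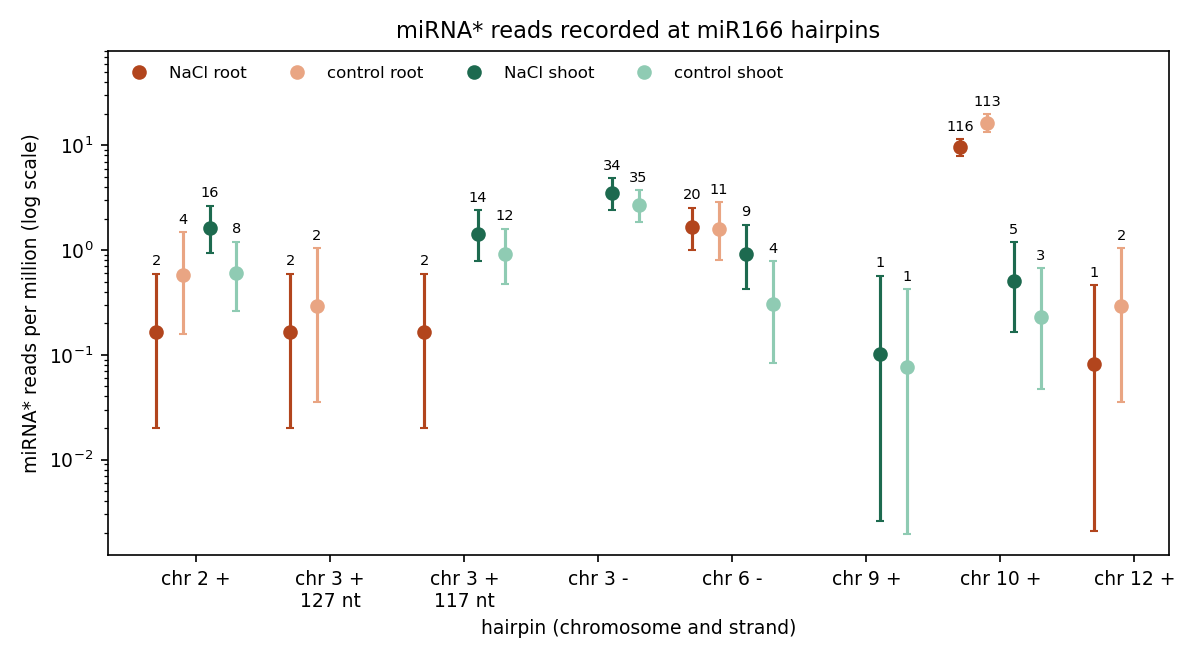
miRNA* reads as RPM (log scale) at the 8 miR166 hairpins with any, by library, with exact Poisson 95% intervals for counting error and the read count above each point. Libraries with none recorded have no point. The plus-strand chromosome 10 hairpin is high in root, with 116 and 113 reads, and the minus-strand chromosome 3 hairpin has 34 and 35 reads in shoot and none in root.

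Set against the reads of the 3p sequences, miRNA* reads numbered 4.12 per 1000 (3.47 to 4.86) in NaCl-treated root and 4.41 (3.68 to 5.23) in control root. They numbered 10.2 per 1000 (8.06 to 12.8) in NaCl-treated shoot and 3.19 (2.44 to 4.09) in control shoot. NaCl-treated shoot stood above the other 3 libraries, which lay between 3.19 and 4.41. The odds of a miRNA* read against a 3p read were 3.20-fold (2.26 to 4.56) those of control in NaCl-treated shoot and 0.935-fold (0.731 to 1.20) in NaCl-treated root. This ratio does not depend on a denominator. In shoot the miRNA* reads were 1.70-fold (1.20 to 2.41) in RPM in the NaCl library relative to control, while the family reads were at 0.529. By raw reads the miRNA* ratio was 1.40 (0.989 to 1.996), an interval that includes 1.

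The 10 miR166 hairpins overlapped those of other conserved families in size, folding and base composition. Their length was 63 to 206 nt with a median of 122 nt, against 68 to 213 nt and 113 nt for 71 other conserved hairpins. Their folding energy was -87.3 to -40.7 kcal/mol with a median of -61.0, against a median of -61.1 for the others. Their G+C content was 43.2% to 63.5% with a median of 47.2%, against 36.4% to 77.1% and 51.1%. The shortest and most G+C-rich of the 10 was the minus-strand chromosome 3 hairpin.

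Other families that regulate meristems, organ polarity or organ boundaries were read beside miR166. These were miR390, which starts tasiRNAs against ARF3-type auxin response factors, miR394, which limits an F-box gene at the shoot apex, miR160 against ARF10-type factors, miR164 against NAC boundary factors and miR319 against TCP factors. In shoot all 5 were called higher in the NaCl library on the RPM scale, where 22.9% of all 96 sequences and 15 of 32 conserved ones were called higher, while the miR166 ratio was 0.529. Reads in NaCl-treated and control shoot were 78 and 40 for miR390 (2.62-fold, 1.77 to 3.94), 106 and 32 for miR394 (4.45-fold, 2.97 to 6.83) and 236 and 79 for miR160 (4.01-fold, 3.10 to 5.25). They were 29 and 16 for miR164 (2.43-fold, 1.28 to 4.80) and 39 and 16 for miR319 (3.27-fold, 1.79 to 6.28). All 5 calls held under 5 of 7 other denominators, and by median of ratios and TMM those of miR390 and miR164 ended. In root 4 of the 5 were in both lists and none was called on the RPM scale, while miR164, with 12 and 2 reads in NaCl-treated and control root (3.41-fold, 0.759 to 31.4), was called higher under 5 of 7 other denominators. Also in root, miR319 had 308 reads in NaCl-treated and 268 in control root, a ratio of 0.653 (0.552 to 0.772). On the RPM scale miR319 was the 1 family of the 5 that, like miR166, was called higher in root than in shoot. Its ratios were 6.36 (4.55 to 9.12) with NaCl and 31.9 (19.3 to 56.6) without. Its call held under all 7 other denominators. Of the others compared, 3 of 3 with NaCl and 2 of 4 without were called lower in root, against 31.9% of all 47 and 22.0% of all 50 sequences. Under listed reads without miR166 these counts were 1 with NaCl and 0 without, and in the second case miR390 and miR160 were called higher in root. By median of ratios and TMM they were 2 with NaCl and 1 without, and miR390 was called higher in root without NaCl. By raw, trimmed, NONCODE-unaligned and listed reads they were 3 with NaCl and 3 without.

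By the distance between centred log2 RPM profiles over the 4 libraries, the nearest of 14 other conserved families listed in all 4 were miR159 (2.30), miR162 (2.43) and miR398 (2.73). miR159 had 26.1 RPM in NaCl-treated root, 42.7 in control root, 51.8 in NaCl-treated shoot and 24.8 in control shoot, and miR162 had 11.5, 17.0, 19.0 and 27.1 RPM in the same order. miR398 had 5.36, 0.726, 0.410 and 2.06 RPM, the last 3 from 5, 4 and 27 reads. miR166 itself was highest in control root and lowest in NaCl-treated shoot, which of these families only miR398 shared in part, with its lowest level in NaCl-treated shoot.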

How the data were processed

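Small RNA of 4 libraries was sequenced as single-end Illumina reads. Per the labels and the study's methods, the authors trimmed reads with cutadapt and other tools, removed other non-coding RNA, matched reads to miRBase and mapped them to the rice genome to predict hairpins. Neither the cutadapt version nor the hairpin predictor is named in these sources. The deposited lists hold 1 entry per hairpin. The deposited abundance is a read count, repeated at every hairpin of a sequence. The deposited RPM is that count per 1000000 reads used for prediction, which from count and RPM were 12126876 in NaCl-treated root, 6887961 in control root, 9765004 in NaCl-treated shoot and 13116913 in control shoot. One read therefore equals 0.0825, 0.145, 0.102 and 0.0762 RPM in these libraries, in that order. A deposited log2 column is the log2 of the RPM. The deposited hairpin values are lengths, coordinates, folding energies, G+C in percent and a p-value of the fold, of which the last was not used. The lists held 289, 172, 386 and 445 entries in the same order, with 20 to 22 nt and at least 2 reads each. A sequence missing from a list was given no count, ratio or limit. Lines without content (3, 3, 4 and 5) were left out.

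Each distinct sequence was counted a single time. Ratios of RPM have exact conditional (Clopper-Pearson) 95% intervals, RPM values exact Poisson, shares exact binomial and odds ratios exact conditional intervals, all for counting error only. With no replicates there is no p-value. Ratios were recomputed with 7 other denominators: raw reads, trimmed reads, reads unaligned with NONCODE, listed reads with and without miR166, median of ratios and TMM (edgeR). Read totals for the first 3 were the study's. miRNA* reads divided by raw reads or without shared sequences, the miR156 pair, and the listed families and the 5p form between tissues under the 7 denominators were added after the data were seen. All miR166 sequences and hairpins are named. Other families named are a list of 5 for meristem, polarity and boundary regulation, the 3 nearest in profile, and the 2 most abundant other sequences of each library. The members and lists were chosen with earlier results of these data known. Names for 5 HD-ZIP III genes were found in the gene table at hand, with no sequences. Computations used Python 3.11.15, numpy 2.4.6, pandas 2.3.3, scipy 1.17.1, matplotlib 3.10.9, R 4.3.3 and edgeR 4.0.16.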

Additional observations from a re-analysis of the deposited data

Results flagged for a closer look

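The k/l form lay on opposite sides of 1 in the 2 tissues, with NaCl over control at 0.994 in root and 1.41 in shoot. All 7 other denominators put the root ratio above 1 (1.13 to 1.66), and 6 of 7 the shoot ratio (0.988 to 2.07), so the opposite sides depend on the scale. The difference between the tissues was not tested, and the root value rests on 7 reads in NaCl-treated and 4 in control root.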

How the results depend on the processing

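No paired analysis was possible because each condition has 1 library and no replicate numbers. On the RPM scale NaCl over control for the family in root was 0.658, and it turned to 1.10 by raw reads, 1.07 by trimmed reads and 1.05 by reads unaligned with NONCODE, while without the upstream form it was 0.432 and called. For the upstream form in root, at 0.885, it turned to 1.48, 1.45 and 1.41 by the same 3 totals, 1.30 by listed reads, 1.10 by median of ratios and 1.19 by TMM. These denominators multiply every root ratio by 1.13 to 1.67, and every shoot ratio by 0.699 to 1.46, so they move all sequences together. In shoot the family became called at 0.438 by raw reads, 0.447 by trimmed reads, 0.495 by reads unaligned with NONCODE, 0.394 by median of ratios, 0.370 by TMM and 0.470 when reads were summed over hairpins. Root over shoot fell to 1.98 with NaCl without the upstream form, and without NaCl to 1.78, 1.91 and 1.93 by raw, trimmed and NONCODE-unaligned reads, which ended the calls. The 1 member called in root was 0 under 6 denominators and 2 by a 1.5-fold rule. The 1 called in shoot was 2 by raw reads, median of ratios, TMM and the 1.5-fold rule, and 0 by listed reads without miR166. By listed reads it was the k/l form, called higher, in place of the canonical form. Over all sequences, the 11 called in root became 18 by the 1.5-fold rule and 4 among conserved sequences, the 29 in shoot became 19 and the 18 between control tissues became 11 among conserved sequences. With all family reads in place of the canonical form, the odds ratio of the upstream form was 1.21 for NaCl over control in shoot, and 3.15 and 1.86 for root over shoot with and without NaCl. By raw reads, 2 miRNA* ratios lost their call, the chromosome 2 hairpin for NaCl over control in shoot and the chromosome 6 hairpin for root over shoot without NaCl. The causes were not tested.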
